A study of Mus musculus with 10 samples.

Results

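Lysosomes are the acidic organelles in which cells break down protein, sugar chains and lipid. Their soluble enzymes reach them mostly through mannose 6-phosphate receptors, a proton pump in the membrane keeps the lumen acidic, and heavily glycosylated membrane proteins line it. Inherited loss of a single hydrolase causes storage disease, often with degeneration of the brain, and microglia, the resident phagocytes of the brain, are rich in several lysosomal proteases. The results below follow 37 genes for lysosomal hydrolases, their cofactors and lysosomal membrane proteins in mouse brain at 2 ages. They were chosen by name, as the probe sets whose gene symbol in the array annotation is one of the 37. A symbol was matched for 36 genes, with 67 of 22626 probe sets, and Cd63 was matched by none. Above the filter on dim probe sets were 58 of these probe sets and 35 of the genes, among 8148 genes tested. The gene not tested was Gla, the alpha-galactosidase, whose brighter probe set read 56.1 ± 7.80 (SD, n = 6) at 1 week and 62.2 ± 5.10 (SD, n = 4) at 8 weeks.

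Brain RNA of C57BL/6 mice, an inbred laboratory strain with no treatment named in the labels, was measured on 10 Affymetrix MOE430A arrays. There were 3 arrays labelled female and 3 labelled male at 1 week of age, and 2 of each label at 8 weeks. Replicate numbers are not stated to mark separate animals, so the p-values measure the spread between these samples, and the number of arrays limits the precision. A value below is a normalized intensity, the brightness of a probe set after all arrays were given the same distribution of intensities. The brightest probe set stands for a gene, and levels are compared only within a probe set. A change is a log2 difference, 8 weeks minus 1 week, on intensity plus a pseudocount of 24, given ± SE, and a gene is called at a limma adjusted p under 0.05. Deposited intensities were brighter at 8 weeks (trimmed means 255 to 318) than at 1 week (138 to 236), so a direction is relative to the whole distribution. In 4 of the 6 arrays at 1 week, Xist and Eif2s3y, transcripts of the X and Y chromosomes, went against the sex label, and replicate 3 labelled female carried both. At 8 weeks, replicate 1 labelled female stood apart: it was the lowest of the 4 arrays in 23 of the 35 lysosomal genes, and it read 3820 for the choroid plexus transcript Ttr against 7882 to 8641 in the others. Counts without it are given below, and its part in the results was not tested. Neuronal markers such as Snap25 (2086 ± 192 at 1 week and 4182 ± 291 at 8 weeks) were present at both ages.

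Many lysosomal promoters hold the letters CACGTG, an E-box to which the lysosomal transcription factor TFEB and its relatives bind. RefSeq promoters (GRCm38.p6, 250 bases before to 50 after a start site) were matched for 33 of the 37 genes, with none for Asah1, Ctsb, Ctsh and Npc1. CACGTG, which reads the same on both strands, lay in the promoters of 10 of the 33 genes (30.3%), against 8.91% of 17492 protein-coding genes and 8.09% of all 27025 genes. TCACGTG, which contains it, was searched on both strands and lay in 8 of the 33 (24.2%) against 5% of protein-coding genes. The longer palindrome TCACGTGA lay in 3 of the 33, Ctsa, Ctsd and Gla (9.09%), against 1.41%. The stretches below are shown because genes that rose with age (Ctsa, Ctsd, Gaa), fell (Glb1) or were not called (Lamp1) all hold the box. They are written 5′ to 3′ on the gene's own strand, upstream bases only, with CACGTG in capitals.
Lamp1, chr8:13159085-13159160, plus strand: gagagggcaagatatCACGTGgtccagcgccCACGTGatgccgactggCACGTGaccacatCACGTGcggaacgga
Ctsa, chr2:164833746-164833772, plus strand: caatgagcaaactgtCACGTGatgcag
Ctsd, chr7:142387905-142387940, minus strand: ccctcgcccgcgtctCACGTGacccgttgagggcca
Gaa, chr11:119267808-119267843, plus strand: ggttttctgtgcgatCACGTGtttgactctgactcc
Glb1, chr9:114401015-114401050, plus strand: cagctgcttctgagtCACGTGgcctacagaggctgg
Lamp1 had 4 boxes, the first base of each 61, 45, 28 and 15 bases before the start site, the most of any of the 33 genes. By call, the box lay in 3 of 12 matched genes that rose, 1 of 5 that fell and 5 of 14 that were not called, and in Gla. These matches describe letters in a window, and binding was not measured.

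Of the 35 lysosomal genes tested, 15 were higher and 6 lower at 8 weeks, and 14 were not called. Among all 8148 genes, 21.9% were called higher and 24% lower (45.9% in either direction), against 42.9% and 17.1% of the lysosomal genes. The median change of the lysosomal genes was 0.18 and that of all genes -0.02. The ages did not overlap in 19 of the 35, where 35.9% of all genes did not overlap. Changes were moderate: the steepest rise was 2.21-fold and the steepest fall 1.43-fold in mean intensity. The count of rises was 14 or 15 with any single array left out, and 11 in a model of age only that dropped the 4 arrays whose sex transcripts opposed their label. The count of falls varied more, and without replicate 2 of either label at 1 week 3 of the 6 were left. Leaving out an 8-week array leaves 1 array in its group, and calls lost that way are given with the genes below. All 6 falls kept their direction with any single array left out. Glb1 was the 1 fall still called when the 4 arrays whose sex transcripts opposed their label were dropped.

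**Figure D1:**
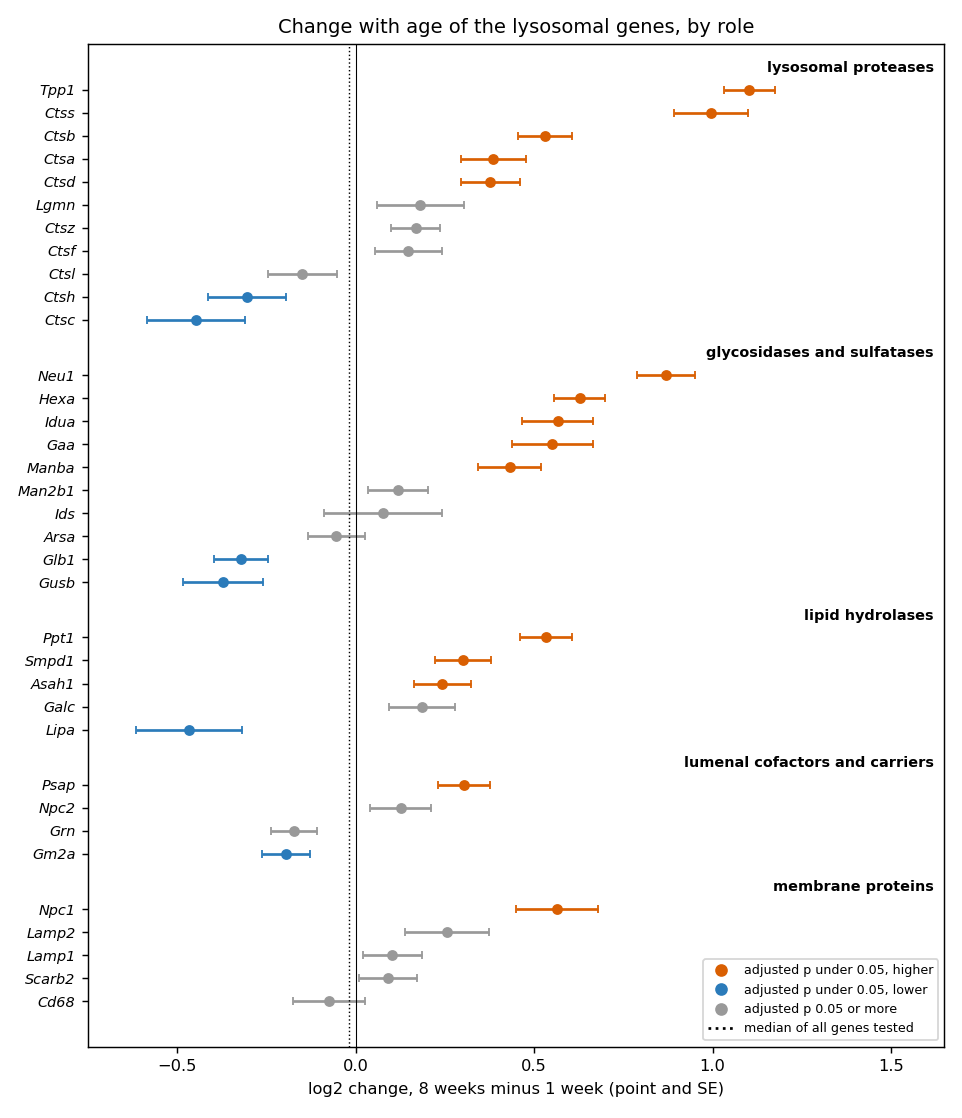
Change with age of the 35 lysosomal genes tested, grouped by role. The horizontal axis is the log2 change (8 weeks minus 1 week), points and bars are the estimate and its SE, colour gives the call, and the dotted line is the median of all genes (-0.02). Tpp1, Ctss and Neu1 lie farthest to the right, and the 6 genes called lower lie between -0.47 and -0.20.

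Directions depended on how arrays were scaled. On deposited values without normalization the median probe set changed by 0.47, and 29 lysosomal genes were called higher and 0 lower. Scaled to the spike-in controls, where that median was 0.18, 15 were called higher and 0 lower. With the median of all probe sets subtracted, the change of a lysosomal gene moved by at most 0.13 across the 4 scalings, and by 0.05 in the median gene. Apart from quantile normalization, the scalings multiply each array by a factor or leave it unchanged. Such a factor shifts all genes almost alike, and the subtraction removes that shift. This closeness was therefore largely fixed in advance and is no further support for the calls. All 15 genes called higher stayed above that median under the 4 scalings, and all 6 called lower stayed below it. The falls described next are therefore falls relative to other transcripts, and on the deposited scale the changes of those 6 genes were above 0.

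**Figure D2:**
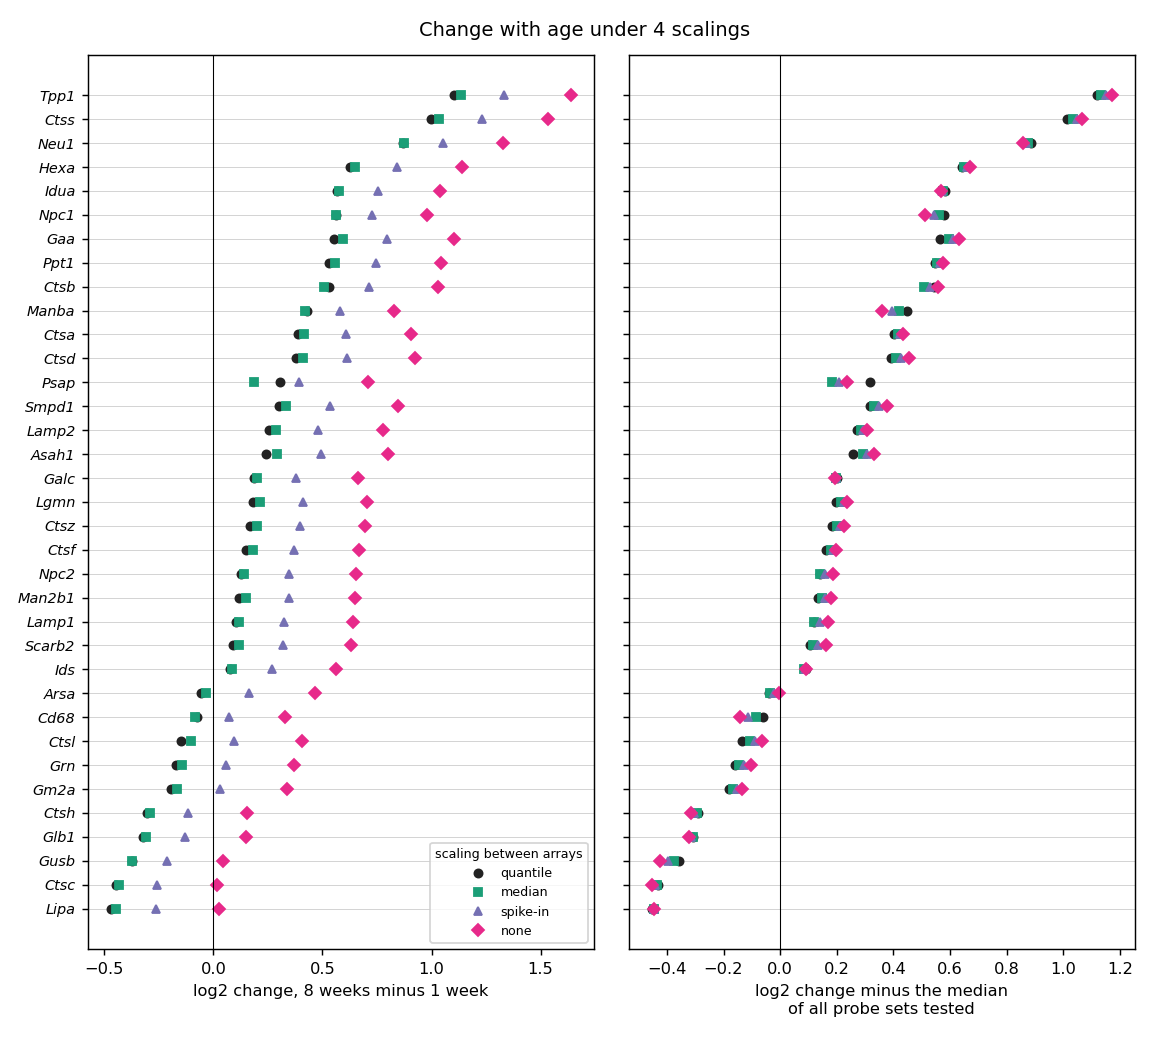
Log2 change with age of the 35 genes under quantile normalization, median scaling, spike-in scaling and no scaling, as estimated (left) and minus the median of all probe sets tested (right). Without scaling every gene lies to the right of 0 in the left panel, and in the right panel the 4 symbols of a gene lie within 0.13 of each other.

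Lysosomal proteases degrade proteins delivered by endocytosis and autophagy. Of the 11 measured, 5 were higher at 8 weeks, 2 lower and 4 not called, against 21.9% higher and 24% lower of all genes. Tpp1, the tripeptidyl peptidase lost in a childhood ceroid lipofuscinosis, read from 407 to 466 at 1 week with a median of 431. At 8 weeks it read 938 and 979 in the arrays labelled female and 969.7 and 969 in those labelled male. All 8-week arrays stood above all 1-week arrays by a wide gap, and the 8-week values varied by 1.88% of their mean, the least of the 35 genes. The change was 1.10 ± 0.07 (adjusted p = 2.28e-06, higher in 4 of 4 arrays), and a dimmer Tpp1 probe set changed by 0.83 ± 0.08.

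Ctss, cathepsin S, a cysteine protease of microglia and macrophages that stays active at neutral pH, read from 290.1 to 384 at 1 week, with a median of 357. Its 8-week arrays read 768 and 713 under the female label and 779 and 612 under the male label. The ages did not overlap, with a 2.06-fold higher mean at 8 weeks and a change of 1.00 ± 0.10 (adjusted p = 3.95e-05). Ctsb, cathepsin B, a cysteine protease found in most brain cells, read from 1801 to 2137 at 1 week, with a median of 1944. At 8 weeks its arrays read 2620.4, 2827, 2752 and 3139, all above every 1-week array. The change was 0.53 ± 0.08 (adjusted p = 3.13e-04), and the other 3 Ctsb probe sets were called higher too, at 0.45 to 0.84.

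Ctsd, the main aspartic protease of lysosomes, went from 1031 ± 89.0 to 1343 ± 75.3 (0.38 ± 0.08, adjusted p = 0.00426). Ctsa, a carboxypeptidase that also stabilises neuraminidase and beta-galactosidase in a complex, went from 276 ± 26.5 to 368 ± 36.3 (0.39 ± 0.09, adjusted p = 0.00604). For both, the 2 ages did not overlap. The cysteine proteases Ctsc, which activates serine proteases of immune cells, and Ctsh, an aminopeptidase, were lower at 8 weeks. Ctsc went from 176 ± 30.5 to 124 ± 27.4 (-0.45 ± 0.14, adjusted p = 0.0224) and Ctsh from 159 ± 16.5 to 124 ± 19.7 (-0.30 ± 0.11, adjusted p = 0.0418), with overlap of the ages in both. Ctsc read 82.8 in replicate 2 labelled male at 8 weeks, against 134 to 143 in the other 3, and without that array or without either 8-week array labelled female it was not called. Ctsh lost its call without any of 7 of the 10 arrays left out singly. Not called were Ctsl (-0.15 ± 0.10), Ctsf (0.15 ± 0.09), Ctsz (0.17 ± 0.07, adjusted p = 0.0676) and the asparaginyl endopeptidase gene Lgmn (0.18 ± 0.12). Ctsz varied least between 1-week arrays of all 35 genes (1.98% of the mean), its ages did not overlap, and a second Ctsz probe set was called higher (0.25 ± 0.07, adjusted p = 0.0181).

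**Figure D3:**
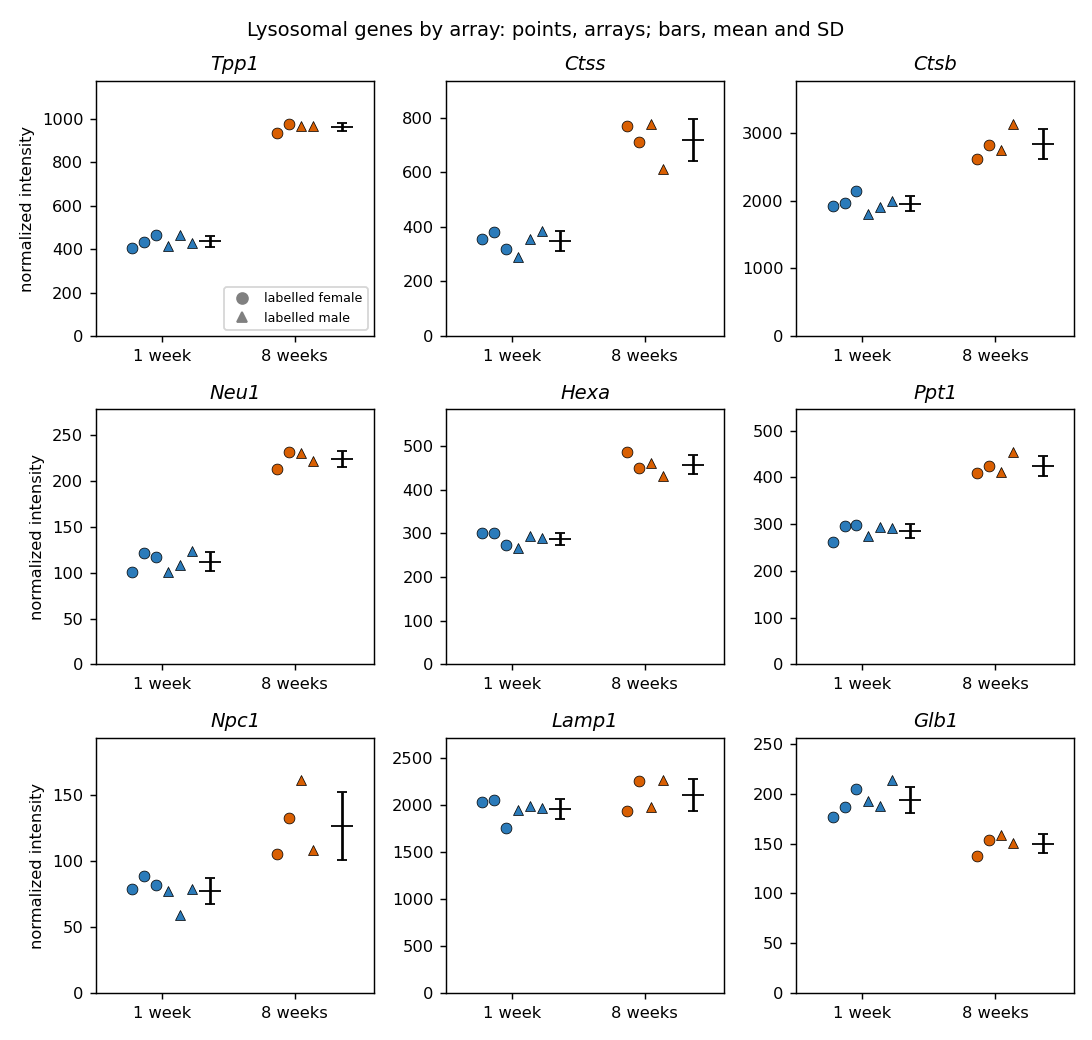
Normalized intensity (vertical axis, from 0) of 9 lysosomal genes in each array at 1 week (blue, n = 6) and 8 weeks (orange, n = 4), with the mean and SD beside each group. Circles are arrays labelled female and triangles arrays labelled male. The ages do not overlap in 8 of the 9 genes, Lamp1 being the exception, and Glb1 is lower at 8 weeks.

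Enzymes that strip sugars and sulfate from glycoproteins, glycolipids and glycosaminoglycans gave 5 rises, 2 falls and 3 genes not called among 10 tested. That is 50% higher and 20% lower, against 21.9% and 24% of all genes. Neu1, the lysosomal sialidase, read from 101 to 124 at 1 week, with a median of 113. At 8 weeks it read 214, 232, 231 and 222, each above all 1-week arrays, with a change of 0.87 ± 0.08 (adjusted p = 1.88e-05). A second Neu1 probe set, 1447942_x_at, went the other way, from 118 ± 36.9 to 77.9 ± 10.1 (-0.44 ± 0.14, adjusted p = 0.0261), with overlapping ages. With the probe sets of the gene averaged, Neu1 was not called (0.21, adjusted p = 0.0559).

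Hexa, the alpha subunit of beta-hexosaminidase, which degrades GM2 ganglioside in neurons and is lost in Tay-Sachs disease, read from 267 to 301 at 1 week, with a median of 292. Its 8-week arrays read 487, 449.8, 462 and 433, with no overlap and a change of 0.63 ± 0.07 (adjusted p = 6.94e-05). Idua, which removes iduronic acid from heparan and dermatan sulfate, read from 127 to 165 at 1 week (median 150.2) and 278, 209.6, 205 and 240.0 at 8 weeks. The 8-week arrays were all higher, by 0.57 ± 0.10 (adjusted p = 0.00113), and a second probe set gave the same rounded change. Gaa, the acid alpha-glucosidase that breaks down glycogen, read from 468 to 641 at 1 week (median 535) and 786, 840.5, 903 and 712 at 8 weeks. It changed by 0.55 ± 0.11 (adjusted p = 0.00281), without overlap. Manba, a beta-mannosidase, went from 74.5 ± 15.3 to 108 ± 5.81 (0.43 ± 0.09, adjusted p = 0.00287). Its 1-week mean lay close to the dimmest mean kept by the filter (73.9), and its 1-week median of 69.4 lay under it. Manba may thus have entered the test through the 8-week arrays. It is counted among the rises, and its call is no firm support for those counts.

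The falls in this group were Glb1, the beta-galactosidase of GM1 ganglioside, and Gusb, the beta-glucuronidase. Glb1 read from 177 to 214 at 1 week (median 191) and 137, 154, 158 and 151 at 8 weeks, so the ages did not overlap (-0.32 ± 0.08, adjusted p = 0.00583). It kept its call with every single array left out, and lost it on the deposited scale, where its change turned to 0.15, and with spike-in scaling, at -0.13. Gusb went from 121 ± 14.8 to 88.3 ± 14.1 (-0.37 ± 0.11, adjusted p = 0.0201). It was not called without replicate 1 labelled female or without replicate 2 labelled male at 8 weeks. By their brightest probe sets, Neu1, Ctsa and Glb1, whose products form a complex in the lysosome, thus read 2.00-fold, 1.33-fold and 0.774-fold of their 1-week means. The other tested Neu1 probe set read 0.660-fold, so the place of Neu1 in this comparison depends on the probe set. Arsa, the arylsulfatase that acts on sulfatide of myelin, read 481 ± 33.5 at 1 week and 462 ± 30.3 at 8 weeks and was not called (adjusted p = 0.609). Man2b1, an alpha-mannosidase, was not called either (0.12 ± 0.09). Ids, the iduronate sulfatase, was not called by its brightest probe set (0.08 ± 0.17), which varied by 29.1% of its mean at 1 week, the most of the 35 genes. Dimmer Ids probe sets were called higher (0.37 ± 0.10 and 0.28 ± 0.10). In the first of them, 1421216_a_at, the change was 0.82 under the female label and -0.08 under the male label (difference between labels, unadjusted p = 0.00149, adjusted p = 0.857).

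Lipid hydrolases turn over sphingolipids, acylated proteins and cholesteryl esters. Of these, 3 of 5 were higher at 8 weeks, 1 lower and 1 not called, where 21.9% of all genes were higher and 24% lower. Ppt1, which removes palmitate from proteins and is lost in an infantile ceroid lipofuscinosis, read from 261 to 298 at 1 week, with a median of 294. At 8 weeks it read 408, 424, 411 and 454, above every 1-week array, with a change of 0.53 ± 0.07 (adjusted p = 2.31e-04). Another Ppt1 probe set read 299 ± 42.6 and 316 ± 46.5 and was not called (0.07 ± 0.11). Smpd1, the acid sphingomyelinase, went from 1072 ± 80.7 to 1324 ± 54.3 (0.30 ± 0.08, adjusted p = 0.0104). Asah1, the acid ceramidase, changed by 0.24 ± 0.08 (adjusted p = 0.0321) and was not called without any of 6 of the 10 arrays left out singly. Galc, which degrades the myelin lipid galactosylceramide, read 192 ± 24.9 at 1 week and 219.8 ± 9.33 at 8 weeks and was not called (0.19 ± 0.09, adjusted p = 0.132).

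Lipa, the acid lipase for cholesteryl esters and triglycerides, had probe sets called in opposite directions. The brightest, 1450872_s_at, read from 238 to 301 at 1 week (median 283) and 140.1, 263, 206 and 169.9 at 8 weeks, with a change of -0.47 ± 0.15 (adjusted p = 0.0257). The ages overlapped through replicate 2 labelled female at 8 weeks, and the 8-week spread, 27.1% of the mean, was the widest of the 35 genes. Probe set 1423141_at read from 156 to 167 at 1 week and 210.2, 185, 204 and 180.1 at 8 weeks, without overlap, and was called higher (0.24 ± 0.07, adjusted p = 0.0185). The remaining one was not called (-0.27 ± 0.13), and neither was Lipa with its probe sets averaged (-0.16, adjusted p = 0.133). The call on the brightest was lost without replicate 2 of either label at 1 week, and without replicate 1 labelled female or replicate 2 labelled male at 8 weeks.

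Cofactors and carriers of the lumen present lipids to the enzymes, and 1 of 4 was called higher and 1 lower. These shares, 25% and 25%, lay near the 21.9% and 24% of all genes. Psap, the precursor of the saposins that activate sphingolipid hydrolases, read from 3243 to 3763 at 1 week (median 3587) and 4284, 4346, 4684 and 4284 at 8 weeks. The ages did not overlap and the change was 0.30 ± 0.07 (adjusted p = 0.00708), with 0.29 ± 0.07 in a second probe set. Under median scaling Psap was not called (0.18, adjusted p = 0.183). Gm2a, the activator that lifts GM2 ganglioside to beta-hexosaminidase, went from 569.6 ± 24.5 to 494 ± 16.4 (-0.20 ± 0.07, adjusted p = 0.0347) without overlap. A second Gm2a probe set read 259 ± 50.7 and 265 ± 27.9, with overlap, and was not called (0.05 ± 0.13, adjusted p = 0.799). The fall of the brightest Gm2a probe set was not called in 8 of the 10 settings that left out an array. On the deposited scale that probe set was called higher (0.34, adjusted p = 0.0397). Npc2, the soluble cholesterol carrier, was not called (0.13 ± 0.09), nor was Grn, progranulin, a secreted protein processed in lysosomes (-0.17 ± 0.07, adjusted p = 0.0523). The ages of Grn did not overlap, at 1104 to 1181 against 986 to 1037.

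Among 5 membrane proteins of the lysosome 1 was called higher, and the other 4 were not called by their brightest probe sets. The share called higher, 20%, lay near the 21.9% of all genes, and 0% were called lower against 24%. Npc1, the cholesterol transporter that works with Npc2, read from 58.9 to 88.7 at 1 week (median 78.7) and 106, 132, 161 and 108 at 8 weeks. The ages did not overlap and the change was 0.56 ± 0.11 (adjusted p = 0.00258). Lamp1, the most used marker of lysosomal membrane, read from 1749 to 2052 at 1 week (median 1973). Its 8-week arrays read 1932, 2249, 1970.3 and 2257, overlapping the younger ones, with a change of 0.10 ± 0.08 (adjusted p = 0.344). Scarb2, which carries glucocerebrosidase to lysosomes, was not called by its brightest probe set (0.09 ± 0.08) but was by a dimmer one (0.54 ± 0.10). Cd68, a membrane protein of phagocytes, read 94.6 ± 11.6 at 1 week and 88.5 ± 10.1 at 8 weeks (adjusted p = 0.581).

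Lamp2, a membrane protein with several spliced forms that is needed for autophagy, had 4 tested probe sets with calls in both directions. The brightest, 1428094_at, read from 252 to 401 at 1 week (median 344) and 365, 452, 406 and 401 at 8 weeks, with overlap and no call (0.26 ± 0.12, adjusted p = 0.101). It was called without replicate 2 labelled male at 1 week. Probe set 1416343_a_at read from 41.4 to 79.7 at 1 week and 113, 136, 113 and 137 at 8 weeks, without overlap. Its 1-week mean of 60.7 was under the dimmest mean kept by the filter (73.9), so it entered the test through the 8-week arrays, and no test is given for it. Probe set 1416344_at was called higher (0.46 ± 0.12, adjusted p = 0.0111), with overlapping ages. Probe set 1434503_s_at went down, from 241 ± 68.3 to 118 ± 15.3 (-0.85 ± 0.18, adjusted p = 0.00325). In it, replicate 2 labelled female at 1 week read 111, within the 8-week range of 96.1 to 129, and the other 1-week arrays read 230 to 296. Which spliced form each probe set reads was not analysed here. Of 16 lysosomal genes with several tested probe sets, 8 had the same call throughout, 5 mixed a call with no call, and 3 (Lamp2, Lipa and Neu1) had opposite calls. Counted by probe set, 29 of 58 were higher and 8 lower, where 22% and 24% of all 13576 probe sets were, and 1416343_a_at is among the 29.

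**Figure D4:**
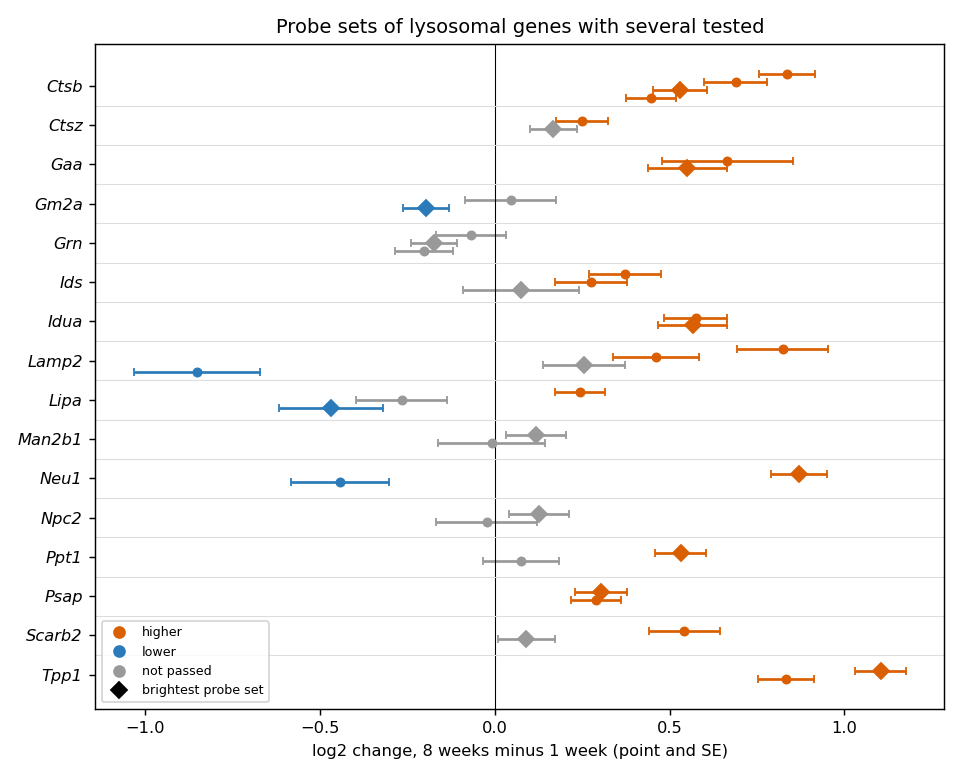
Log2 change with age (point and SE) of every tested probe set in the 16 lysosomal genes with more than 1. Diamonds mark the brightest probe set and colour gives the call (higher, lower or not passed). Points of Ctsb, Tpp1, Idua and Psap are all on the right of 0, and those of Lamp2, Lipa and Neu1 lie on both sides.

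The age change was compared between labels, although at 1 week the labels do not give the sex of each brain (above). Under the female label 10 lysosomal genes were higher and 1 lower, where 14% and 16% of all genes were (30.1% in either direction), and 6 were higher when either one of its 8-week arrays was left out. Under the male label 12 were higher and 2 lower, where 15.5% and 16.5% of all genes were (32% in either direction). Tpp1 changed by 1.10 and 1.11, Ctss by 1.02 and 0.97, and Neu1 by 0.85 and 0.89 under the female and male labels. The difference between labels in the age change was called by limma in 0 lysosomal genes and in 0% of all genes. At an unadjusted p under 0.05 it was 0 genes by their brightest probe sets, and among all 58 probe sets only the Ids one described above. Male against female label at 8 weeks gave 0 lysosomal genes (1 at an unadjusted p under 0.05 by its brightest probe set, Ctsf) and 0% of all genes. With 2 arrays of each label at 8 weeks, small differences could not be detected.

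Other lysosomal genes, from lists that hold none of the 37, gave 26 rises and 6 falls among 76 tested. That is 34.2% higher and 7.89% lower, against 21.9% and 24% of all genes. Subunits of the proton pump that acidifies lysosomes and synaptic vesicles were higher in 9 of 18 and lower in 1. Atp6v1g2 (0.89 ± 0.07), Atp6v1b2 (0.70 ± 0.09) and Atp6v1d (0.64 ± 0.08), all of its cytosolic part, changed most, and Atp6v0e2 was lower (-0.22 ± 0.07). Genes that deliver enzymes to lysosomes were higher in 5 of 14 and lower in 3 (35.7% and 21.4%, the latter near the share of all genes). Sorl1, a sorting receptor, rose by 1.64 ± 0.11, Sort1, sortilin, by 0.84 ± 0.11 and M6pr, a mannose 6-phosphate receptor, by 0.80 ± 0.09. Lower were Ap1m1, an adaptor subunit (-0.49 ± 0.07), Gnptab, the enzyme that begins the mannose 6-phosphate tag (-0.37 ± 0.08), and Gga2 (-0.32 ± 0.10).

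Enzymes outside the 37, most of them hydrolases, were mostly not called. Of 19 tested, 3 were higher and 1 lower (15.8% and 5.26%, against 21.9% and 24% of all genes). The 19 include Gba2, a glucosylceramidase that is not lysosomal, which was not called (-0.02 ± 0.07). Dpp7, a dipeptidyl peptidase, rose by 0.80 ± 0.11. Smaller rises were those of Hgsnat (0.35 ± 0.11) and Sgsh (0.29 ± 0.11), both of heparan sulfate breakdown. Hgsnat is an acetyltransferase and not a hydrolase. The hyaluronidase gene Hyal2 fell (-0.63 ± 0.08). Other membrane proteins rose in 5 of 13, with the rest not called, led by Laptm4b (0.95 ± 0.15), Cd164 (0.82 ± 0.10) and Tmem192 (0.38 ± 0.12). Of 2 cathepsin inhibitors tested, Cst3, cystatin C, was higher (0.38 ± 0.09). Among genes that control lysosome formation and its mTORC1 signalling, 3 of 10 were higher and 1 lower. Rragc rose by 0.53 ± 0.09 and Lamtor2 by 0.21 ± 0.07, Lamtor4 fell (-0.38 ± 0.11), and Tfeb was not called (0.15 ± 0.29). The third gene counted as higher, Mitf, a relative of TFEB, read 64.2 ± 9.65 at 1 week and 112 ± 6.60 at 8 weeks. Its 1-week mean, like the 8-week mean of Hyal2 (65.2), lay under the dimmest mean kept by the filter, so both were tested because of the age at which they were brighter, and their calls are no support for these counts. On the deposited scale these lists had 65 rises and 0 falls, and with spike-in scaling 24 and 1.

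**Figure D5:**
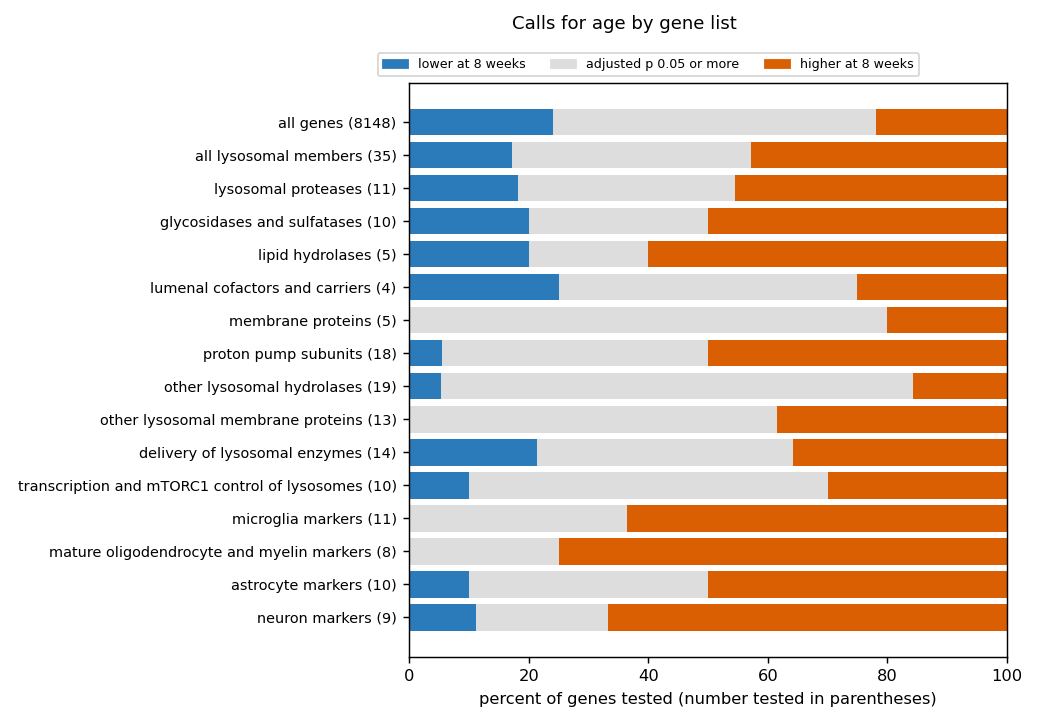
Percent of tested genes called lower (blue), not called (grey) or called higher (orange) at 8 weeks in each list, with the number tested in parentheses. All lysosomal members had 42.9% higher and 17.1% lower, against 21.9% and 24% of all genes.

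Markers of several cell types moved with age beside the lysosomal genes, and in whole-brain RNA fewer cells of a type and less RNA per cell cannot be told apart. The marker counts here and in the next paragraph stand beside 21.9% higher and 24% lower among all genes. Microglia markers were higher in 7 of 11 tested, led by Tmem119 (0.69 ± 0.13), P2ry12 (0.59 ± 0.09) and C1qc (0.46 ± 0.09). The other 4 were not called, with changes from -0.05 (Fcrls) to 0.16 (Fcer1g). Their summed level ran from 2762 to 3477 at 1 week and from 3442 to 4562 at 8 weeks, lowest at 8 weeks in replicate 2 labelled male. Over the 35 lysosomal genes that array was the lowest at 8 weeks in 9 and the highest in 6. The 9 were Ctsa, Ctsc, Ctsh, Ctss, Hexa, Gaa, Ids, Man2b1 and Cd68. Whether single lysosomal genes follow the microglia sum over arrays was not tested. Macrophage markers of vessels and meninges were lower in 3 of 4 (Mrc1, -0.54 ± 0.08, Pf4, -0.54 ± 0.11, and F13a1, -0.28 ± 0.10), with sums of 488 to 593 at 1 week and 359 to 444 at 8 weeks.

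Oligodendrocyte and myelin markers rose in 6 of 8 (Mobp, 3.72 ± 0.76, Mal, 2.81 ± 0.24, and Aspa, 1.68 ± 0.17), with sums of 2442 to 11475 and 14170.1 to 18408. Their 1-week sums were uneven. Replicates 1, 2 and 3 read 2442, 11475 and 10766 under the female label and 3396, 6117 and 5345 under the male label. The reason for this spread was not tested. Astrocyte markers rose in 5 of 10 (Gjb6, 2.07 ± 0.12, S100b, 1.98 ± 0.19, and Glul, 1.55 ± 0.08) and 1 fell, Aldh1l1 (-0.80 ± 0.13), with sums of 7025 to 9956 and 14658 to 15772. Neuron markers rose in 6 of 9 (Camk2a, 2.13 ± 0.21, Eno2, 1.15 ± 0.07, and Snap25, 1.00 ± 0.09) and 1 fell, Tubb3 (-2.28 ± 0.11), with sums of 10842 to 12691 and 15394 to 15886. Endothelial markers rose in 2 of 8 (Slco1a4, 1.42 ± 0.15, and Abcb1a, 1.01 ± 0.08) and fell in 3 (Kdr, -0.69 ± 0.08, Cldn5, -0.60 ± 0.08, and Cdh5, -0.48 ± 0.09). The choroid plexus markers tested, Ttr (0.31 ± 0.17) and Folr1 (-0.10 ± 0.14), were not called. Their sum ran from 4935 to 6171 at 1 week and from 3894 to 8787 at 8 weeks, lowest in replicate 1 labelled female. The 1 blood marker tested, Alas2, was called lower (-0.80 ± 0.16), with 1-week levels of 234 to 363 under the female label and 86.0 to 124 under the male label, and 8-week levels of 75.9 to 136. It changed by -1.31 under the female label and -0.29 under the male label (difference, unadjusted p = 0.00857, adjusted p = 0.857). Camk2a and Abcb1a at 1 week and Cdh5 at 8 weeks had means under the dimmest kept by the filter, so their calls are no support for the counts of their lists. The part of these cell types in the lysosomal changes was not tested.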

How the data were processed

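The authors deposited linear intensity values, 1 for each probe set and array. The software that summarised the probes is not given in the sources used here. Of 22690 probe sets, 64 array controls were left out. Intensities were quantile normalized, a pseudocount of 24 (the 20th percentile of deposited values) was added and log2 taken. Probe sets with a mean under the 40th percentile were left out, leaving 13576. A single symbol was given for 20380 probe sets, several for 691 and none for 1555. The fits used limma 3.58.1 under R 4.3.3, with 1 coefficient per group of age and label, all 10 arrays, and Benjamini-Hochberg adjustment over all probe sets, two-sided. The code was tested on simulated data.

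The genes, the gene lists and the alternatives were chosen with earlier results of these data known. Values by array were given for genes called for age with a change of at least 0.5, and for Lamp1 and Lamp2. Glb1, Psap, Grn, Lipa and the extra Lamp2 probe sets were shown by array after their values were seen. From other lists, up to 3 called genes in each direction were named. The 21 alternatives were other pseudocounts, scalings, filters, models, a replicate block, an average over probe sets and each array left out.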

Additional observations from a re-analysis of the deposited data

Results flagged for a closer look

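In each age, the highest or lowest array of the 35 lysosomal genes was compared with its nearest neighbour, 70 comparisons in all, of which chance flags about 1 in 20. A wide gap set 5 arrays apart. At 8 weeks, Ctsc read 82.8 in replicate 2 labelled male, with the next array at 134. Lgmn read 319 in replicate 1 labelled female, with the next at 406, and Psap read 4684 in replicate 1 labelled male, with the next at 4346. At 1 week, Galc read 143 in replicate 1 labelled male, with the next at 188, and Lamp1 read 1749 in replicate 3 labelled female, with the next at 1943.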

How the results depend on the processing

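Over 728 values of single genes under alternatives, 635 kept direction and side of the threshold, 55 lost a call, 19 gained one and 19 changed sign. The 10 genes called higher that kept their call in every alternative that tested them were Ctsb, Ctsd, Ctss, Tpp1, Hexa, Gaa, Idua, Ppt1, Smpd1 and Npc1. The other 5 kept their direction, and 0 of 6 falls kept direction throughout. All 6 falls changed sign on deposited values, where the median probe set changed by 0.47. A shift upward of that size can turn a small fall but not a rise, so this contrast was fixed in advance by that scale. Gm2a also changed sign with spike-in scaling, and no fall did so under the other alternatives.

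On deposited values, all probe sets gave 8673 higher and 629 lower, the lysosomal genes 29 and 0, the related lists 65 and 0, and the cell type markers 43 and 2. Lysosomal genes there gave 21 and 0 under the female label and 28 and 0 under the male label. Sign changes there were Ctsc 0.0163, Ctsh 0.15, Ctsl 0.41, Glb1 0.15, Gusb 0.0455, Arsa 0.47, Lipa 0.0258, Gm2a 0.34, Grn 0.37 and Cd68 0.33. With spike-in scaling lower counts were 1036 for all probe sets, 0 for lysosomal genes, 1 for related lists and 4 for markers. There the female label gave 6 higher and 0 lower and the male label 0 lower, and signs changed for Ctsl 0.0965, Arsa 0.16, Gm2a 0.0313, Grn 0.0568 and Cd68 0.0727. Median scaling gave 0 lower under the female and 1 under the male label, as did no filter. The stricter filter gave 2 and 1, with 4 markers lower, and the larger pseudocount 1 lower under the male label. With age as the only term and 4 arrays dropped, lower counts were 1974 probe sets, 1 lysosomal gene and 2 related genes, from fewer arrays. The cause of the other differences was not tested.

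With each array left out in turn, lysosomal genes gave 14 to 15 higher and 1 to 5 lower, 6 to 10 higher and 0 to 1 lower under the female label, and 8 to 12 higher and 0 to 2 lower under the male label. A group left with 1 array was assumed to vary like the others. Ids turned to -0.00335 without replicate 3 labelled female and to -1.11e-04 without replicate 2 labelled male at 1 week, and Cd68 to 0.0025 without replicate 2 labelled male at 8 weeks. Over single arrays left out, Ids ranged from -0.00335 to 0.18 and Cd68 from -0.15 to 0.0025. Same-numbered arrays of the 2 labels correlated at 0.193, 0.098 and 0.0989 at 1 week in their deviations from group means. Differently numbered 1-week arrays of the 2 labels correlated at -0.163 to 0.082. At 8 weeks the correlations were -0.004 for the same number and 0.004 for different numbers. The main fit did not take the numbers as pairs, and whether they mark a shared factor was not tested. A replicate block gave 14 higher and 3 lower lysosomal genes, 0 lower under the female label and 1 under the male label, and Ids at -0.0248.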
